A study of Mus musculus with 104 samples.

Results

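The arrays described here carry the labels BALB and striatum and compare 5 arrays from old mice, 21 to 23 months of age, with 3 from young mice, 2 to 3 months of age. They were chosen by their labelled strain, region and age, and make up 8 of the 104 samples of the series. All were labelled male, the labels name no treatment or allele, and total RNA was hybridised with 1 dye to a whole mouse genome oligonucleotide array. A further 5 arrays with the same strain and region labels came from middle-aged mice of 12 to 13 months and entered the fit only to share its estimate of spread. The comparison group was labelled male C57BL/6 cerebellum, with 4 young, 2 middle-aged and 6 old arrays of the same label ages. The study's methods describe cerebellum and hypothalamus of both strains and give no separate account of the striatum-labelled mice. No source used here ties each of these arrays to an animal of its own, so p-values measure the spread between arrays, which may be partly technical.

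The striatum is the input nucleus of the basal ganglia. Most of its neurons are GABAergic medium spiny neurons, which carry dopamine receptors (Drd1, Drd2), the adenosine receptor Adora2a and the phosphodiesterase Pde10a. The cerebellar cortex is built from a small number of large Purkinje cells, marked by Pcp2, Calb1 and Car8, and a great number of granule cells, marked by the GABA-A receptor subunit Gabra6 and the secreted synaptic organiser Cbln3. Ageing brain tissue is known for raised levels of innate immune genes, among them MHC class I, complement, microglial receptors and interferon-induced genes.

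Each array gave log2 signals for 41174 probes of 27670 gene names, and 1 unit of log2 signal is a factor of 2. On the 8 arrays 73.2 to 79.8% of probes were well above background, so dim genes were measured less well than bright ones, and the number of arrays limits the precision. The 8 arrays lay on 6 slides, of which 1 held both a young and an old array, and all were scanned on 1 day. The Y-linked gene Ddx3y lay between 11.81 and 12.09 on all 8, as the male label states.

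The region label was checked first, with genes that mark cell types. Pcp2, a Purkinje cell gene, had log2 signals of 17.31, 17.24 and 16.90 on young arrays 1 to 3 and of 16.81, 17.49, 10.30, 17.25 and 17.21 on old arrays 1 to 5. Gabra6, the granule cell receptor subunit, had 15.77, 15.52 and 14.99 on the young arrays and 15.11, 15.88, 5.14, 15.52 and 15.53 on the old arrays. Cbln3, which granule cells secrete as a partner of Cbln1, lay at 1.79 on old array 3, not well above background, and between 11.29 and 12.17 on the other 7. Thus 7 of the 8 arrays carried bright cerebellar genes and old array 3 did not. The gap from old array 3 to the nearest other array was -6.51 for Pcp2, -9.85 for Gabra6 and -5.80 for Car8, a carbonic anhydrase-related protein that binds the Purkinje cell calcium channel Itpr1. Old array 3 was the lowest of the 8 for 10 of 10 Purkinje cell genes and for 11 of 11 granule cell genes.

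The genes of medium spiny neurons were not all dim where the cerebellar genes were bright. Drd1, the D1 dopamine receptor, lay between 5.29 and 6.38 on the 7 arrays and at 7.99 on old array 3. Adora2a was brighter, at 9.62 on old array 2 and 10.91 to 11.15 on the other old arrays, old array 3 included. Old array 3 was highest for 14 of 19 medium spiny neuron genes and lowest for 2, so its pattern there was mostly the reverse of that in cerebellar genes. It also stood above the rest for Prkcd, a protein kinase C abundant in thalamus, at 14.98 against 12.69 to 13.28. For Hcrt, the hypothalamic peptide orexin, it had 12.88 against 6.23 to 9.84.

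**Figure D1:**
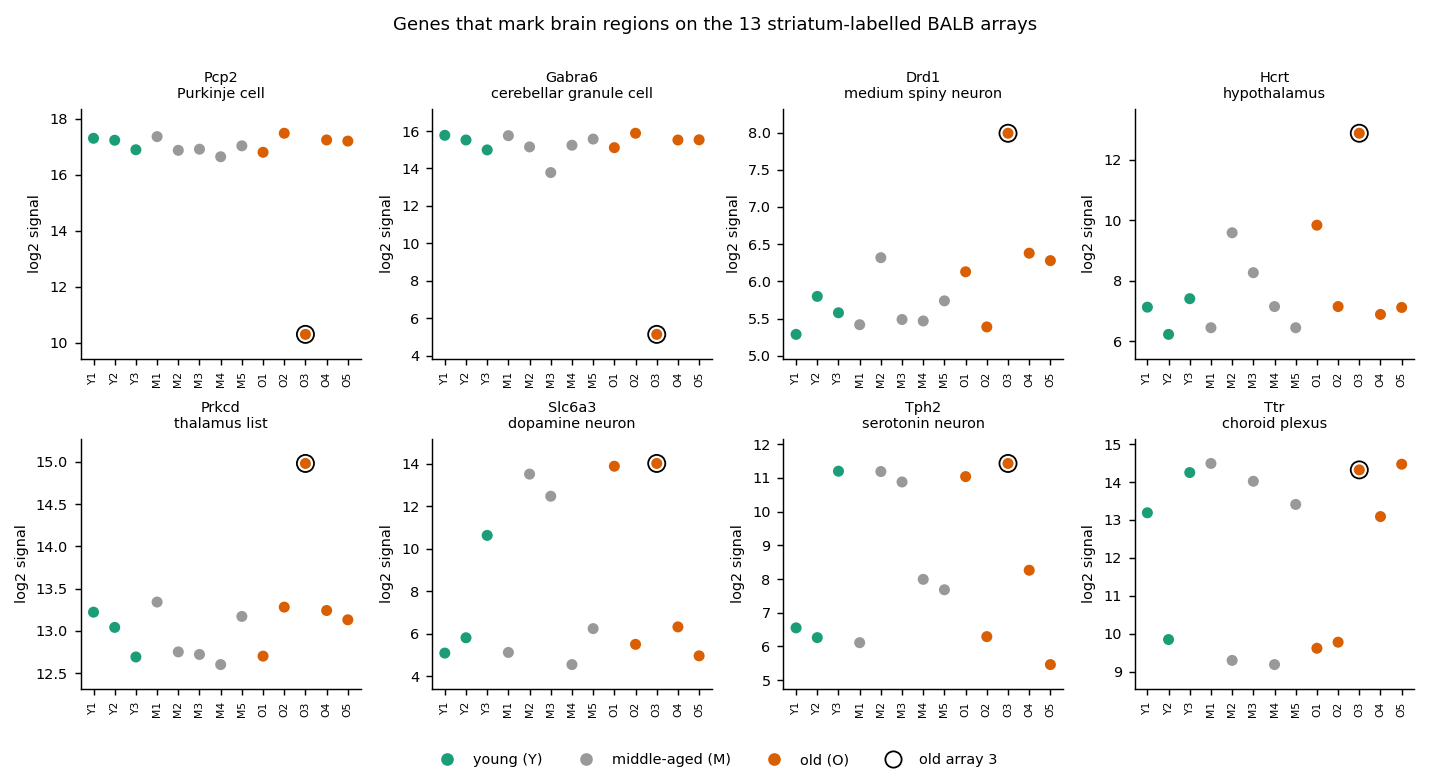
Log2 signal (vertical axes, a separate range in each panel) of 8 region-marking genes on the 13 striatum-labelled BALB arrays (horizontal axes; Y young, M middle-aged, O old; 1 point per array). Old array 3, ringed, is the lowest for Pcp2 at 10.30 and for Gabra6 at 5.14, while Slc6a3, Tph2 and Ttr are high on some arrays of every age.

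Levels were then set beside the cerebellum- and hypothalamus-labelled arrays of both strains, with all 68 arrays normalized together. On this scale Pcp2 was 16.71 to 17.42 on the 7 arrays and 10.08 on old array 3. It was 16.41 to 17.01 in old and 14.86 to 16.86 in young C57BL/6 cerebellum, and 9.23 to 10.22 in old BALB hypothalamus. The 7 arrays therefore overlapped cerebellum and lay above hypothalamus. Drd1 was 4.97 to 6.08 on the 7 arrays, 4.29 to 5.76 in old C57BL/6 cerebellum and 6.76 to 8.36 in young BALB hypothalamus, so on the 7 arrays this defining gene of striatal projection neurons overlapped cerebellum and lay below young BALB hypothalamus. A list score, the mean over a list of each gene's log2 signal after its mean over the 68 arrays was taken off, gave the same order. The medium spiny neuron score was -1.99 to -0.73 on the 7 arrays, 0.10 on old array 3, and 0.59 or more on every BALB hypothalamus array.

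Old array 3 was not alone in the series in its mix of genes. Its rank correlation over probes was highest with a young BALB array labelled cerebellum, at 0.993. Its median correlation was 0.989 with the 5 arrays of that group and 0.99 with the 6 middle-aged cerebellum-labelled BALB arrays. With the other striatum-labelled arrays it was 0.969. Those 5 young cerebellum-labelled BALB arrays had Pcp2 at 9.91 to 10.64, near old array 3, and the 4 old cerebellum-labelled BALB arrays had it at 16.66 to 17.24. The cerebellum-labelled BALB arrays lay on the same slides as the striatum-labelled ones. All arrays are kept here under the label they carry. The 7 young and old striatum-labelled arrays other than old array 3 had Purkinje cell list scores of 2.01 to 2.57. These lay above the 0.27 to 1.95 of C57BL/6 cerebellum, while BALB hypothalamus had -1.63 to -1.23 and old array 3 had -1.67. By this score the 7 arrays resembled cerebellum, whatever their label, and old array 3 did not. The origin of each array beyond such marker levels was not tested. In bulk tissue fewer cells of a type and less RNA per cell cannot be told apart. Because old array 3 goes against the other 7, the counts, list medians and main genes below are given with it and without it.

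**Figure D2:**
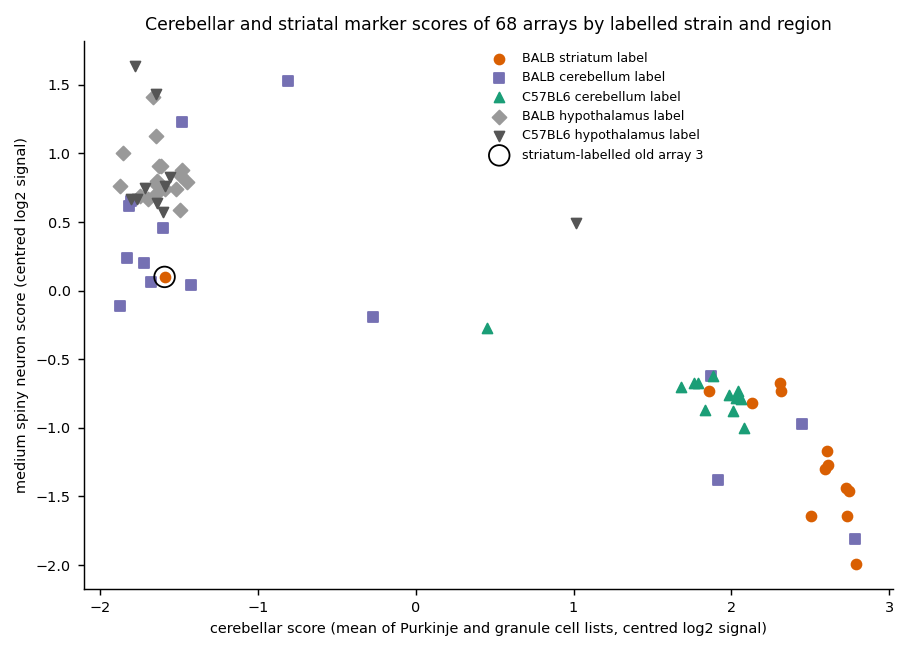
Cerebellar score (horizontal, mean of the Purkinje and granule cell list scores, centred log2 signal) against medium spiny neuron score (vertical, centred log2 signal) for 68 arrays, 1 point per array, by labelled strain and region. Of the 13 striatum-labelled arrays, 12 lie at high cerebellar scores together with C57BL/6 cerebellum and old BALB cerebellum. Old array 3, ringed, lies at the left at a medium spiny neuron score of 0.10. Most of the young and middle-aged cerebellum-labelled BALB arrays also lie at the left. So do most hypothalamus arrays, at medium spiny neuron scores of 0.57 or more, a range that some of those cerebellum-labelled arrays share.

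The 7 arrays also differed among themselves in genes of regions next to the cerebellum. Slc6a3, the dopamine transporter of midbrain neurons, had log2 signals of 5.10, 5.82 and 10.63 on young arrays 1 to 3 and of 13.88, 5.51, 14.01, 6.33 and 4.97 on old arrays 1 to 5. Tph2, which makes serotonin in neurons of the raphe, had 6.55, 6.26 and 11.20 on the young arrays and 11.04, 6.29, 11.43, 8.26 and 5.46 on the old arrays. Young array 3, old array 1 and old array 3 were high for both genes, and the age groups overlapped. Of the midbrain dopamine neuron genes, Ddc, which forms dopamine from L-DOPA, reached 12.86, 13.31 and 13.85 on those 3 arrays and 10.28 to 10.69 on the other 5.

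A second set of genes varied on a different set of arrays. Ttr, the thyroid hormone carrier made by the choroid plexus, had 13.19, 9.85 and 14.25 on the young arrays and 9.62, 9.78, 14.32, 13.09 and 14.47 on the old arrays. Young array 2, old array 1 and old array 2 were low and the other 5 high. Sostdc1, a secreted BMP and Wnt antagonist of the same epithelium, ran from 7.80 to 12.50 with the same 3 arrays low. Myelin genes varied less, with Mbp, the myelin basic protein gene, between 16.79 and 17.41. None of these levels separated old from young arrays.

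No gene passed the test between old and young. With B, the log odds of a difference, above 0 as the threshold, limma called 0 of 21270 genes (0%), and 0 of 32242 probes (0%) had an adjusted p under 0.05. Without old array 3 it called 0 of 20982 genes (0%). The highest B was -3.91 with the 8 arrays and -3.84 without old array 3, and the smallest adjusted p was 1 in both. At an unadjusted p under 0.05 there were 117 genes (0.55%) with the 8 arrays, 42 higher (0.197%) and 75 lower (0.353%) in old, and 146 (0.696%) without old array 3, 56 higher (0.267%) and 90 lower (0.429%). These shares are below what such a threshold gives when no gene differs by age, so they cannot be read as calibrated error rates. The part of region content in the spread of the fit was not tested. Groups that did not overlap were found for 401 genes (1.89%) with the 8 arrays, 153 higher (0.719%) and 248 lower (1.17%) in old, and for 644 (3.07%) without old array 3, 266 higher (1.27%) and 378 lower (1.80%). The median standard error of a probe was 0.25 log2 units, and 76.2% of the 95% intervals lay within 1 log2 unit of zero, so small differences were not detectable with these arrays.

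For Purkinje cell, granule cell and medium spiny neuron genes the sign of the median age difference changed with old array 3. Over the 8 arrays the Purkinje cell genes had a median difference of -0.58 with 10 of 10 lower in old, against a median of -0.01 and 51.7% lower over all genes tested. Without old array 3 the median was 0.05 and 8 of 10 were higher. The granule cell genes went from a median of -0.35 with 11 of 11 lower to one of 0.22 with 11 of 11 higher. The medium spiny neuron genes had a median of 0.22 with and -0.07 without that array, and the thalamus genes, which kept their sign, 0.44 and 0.10. No member of these 4 lists passed an unadjusted p of 0.05 in either set.

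**Figure D3:**
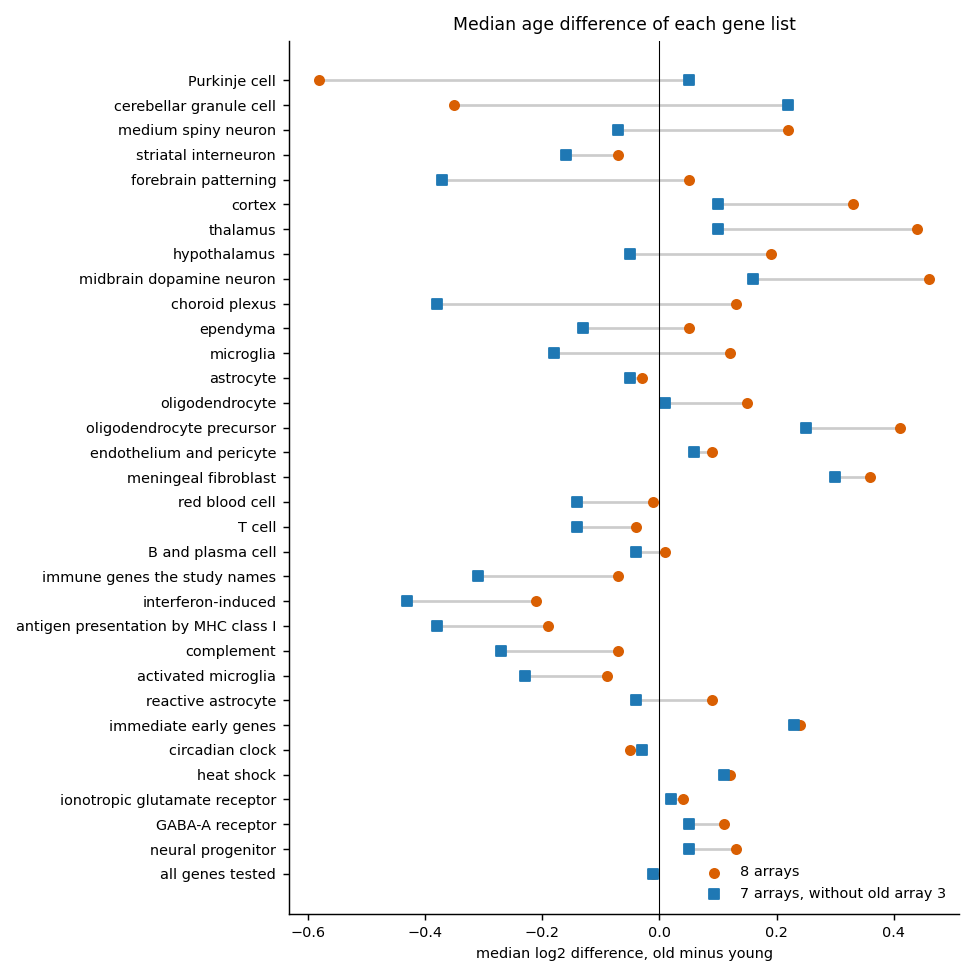
Median log2 difference, old minus young (horizontal), of the tested genes in each of 32 lists and of all genes (vertical), over the 8 arrays (circles) and without old array 3 (squares). The Purkinje and granule cell medians cross zero when that array is left out, from -0.58 to 0.05 and from -0.35 to 0.22, while interferon-induced and MHC class I medians are below zero in both.

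Immune genes had lower mean signals on the old arrays once old array 3 was left out, although none passed the test. The 34 immune genes that the study names had a median difference of -0.07 over 8 arrays, with 21 of 34 lower, and of -0.31 without old array 3, with 33 of 34 lower against 52.7% of all genes. Of the 34, 4 were lower at an unadjusted p under 0.05, against 0.429% of all genes, and 2 did not overlap between the groups, against 1.80%. The study picked these genes in other cohorts of the series. Genes of a list move together on an array, so a count of genes is not a count of independent observations.

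The genes induced by interferon, the cytokines of antiviral defence, had a median difference of -0.21 with 13 of 14 lower over 8 arrays and of -0.43 with 14 of 14 lower without old array 3. Of the 14, 3 were then lower at an unadjusted p under 0.05, against 0.429% of all genes, and 4 were lower with no overlap between the groups, against 1.80%. Genes of MHC class I antigen presentation, which displays peptides to T cells, had medians of -0.19 and -0.38 with 10 of 10 lower in both sets. The complement genes had -0.07 and -0.27. The 11 tested genes of activated microglia had -0.09 and -0.23, and the 12 of resting microglia 0.12 and -0.18, with 11 of 12 lower without that array. The interferon list score, here centred over the 13 striatum-labelled arrays, was -0.01, 0.21 and 0.07 on the young arrays and -0.15, 0.16, 0.76, -0.20 and -0.42 on the old arrays. Old array 3 had the highest interferon score and old array 5 the lowest of the 8, with old array 2 among the young ones. On the 1 slide that held both ages, old array 2 minus young array 2 had a median of -0.16 for interferon-induced genes (12 of 14 lower) and -0.36 for MHC class I genes (10 of 10 lower). On that slide the median was -0.21 for complement genes (10 of 10 lower), -0.09 for the 34 immune genes (25 lower), 0.00 for resting microglia genes (6 of 12 lower), 0.09 for activated microglia genes (5 of 11 lower) and 0.01 for all 20982 genes tested without old array 3 (9963 lower). Within the slide most genes of the interferon-induced, MHC class I and complement lists were lower on the old array. The resting and activated microglia lists did not show this. These values rest on 1 old and 1 young array, and the cells that carry the genes were not tested.

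Single members show the same spread. B2m, the light chain shared by MHC class I molecules, had log2 signals of 13.73, 14.20 and 14.00 on the young arrays and of 13.61, 13.75, 14.67, 13.57 and 13.35 on the old arrays. Old array 3 was the highest, and young array 1 lay just below old array 2, so the groups overlapped also without old array 3. Without that array the means were 13.97 ± 0.24 (SD, n = 3) and 13.56 ± 0.16 (SD, n = 4), and the difference was -0.41 (SE 0.18, limma, adjusted p = 1); with it the difference was -0.19. H2-D1, an MHC class I heavy chain, had 13.73, 13.99 and 13.79 on the young arrays and 13.37, 13.88, 13.93, 13.61 and 13.55 on the old arrays. Old arrays 2 and 3 lay within the young range. Ctss, the lysosomal protease cathepsin S, had 13.94, 14.18 and 14.40 on the young arrays and 13.99, 14.14, 15.24, 13.45 and 13.36 on the old arrays. Old array 3 was again highest, and old arrays 4 and 5 lay below the young range.

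Of the interferon-induced genes, Ifi27l2a, a small mitochondrial protein, had 10.64, 10.80 and 10.49 on the young arrays and 10.10, 10.48, 11.15, 10.14 and 9.63 on the old arrays. Without old array 3 the groups did not overlap, but the lowest young and the highest old array lay at 10.49 and 10.48, and the difference was -0.56 (SE 0.26, limma, adjusted p = 1), against -0.34 with it. Bst2, the antiviral membrane protein tetherin, had 10.30, 10.39 and 10.54 on the young arrays and 9.79, 10.10, 10.85, 10.15 and 9.88 on the old arrays. The 4 old arrays other than old array 3 all lay below the young ones, with a difference of -0.43 (SE 0.16, limma, adjusted p = 1), against -0.26 with old array 3.

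Genes of phagocytes had a wider range. Clec7a, the beta-glucan receptor dectin-1, had 8.22, 8.31 and 7.94 on the young arrays and 6.92, 8.22, 9.62, 7.05 and 6.22 on the old arrays. Itgax, the integrin CD11c, had 6.39, 6.69 and 6.76 on the young arrays and 5.16, 7.06, 8.75, 5.52 and 4.20 on the old arrays. For both genes old array 3 was the highest of the 8, old array 2 lay at or above young levels, and old arrays 1, 4 and 5 were low. Lgals3, the lectin galectin 3, had 9.95, 9.86 and 10.45 on the young arrays and 9.40, 9.93, 11.19, 9.61 and 9.50 on the old arrays, and its groups overlapped. Old array 3 was the highest of the 8 arrays for 28 of the 34 immune genes, for 12 of 15 interferon-induced genes and for 12 of 12 genes of resting microglia, as it was for 9 of 11 oligodendrocyte genes. The part of tissue content in the immune values of old array 3 was not tested. Old array 5 was the lowest of the 8 for 11 of 15 interferon-induced genes and for 9 of 12 genes of resting microglia.

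**Figure D4:**
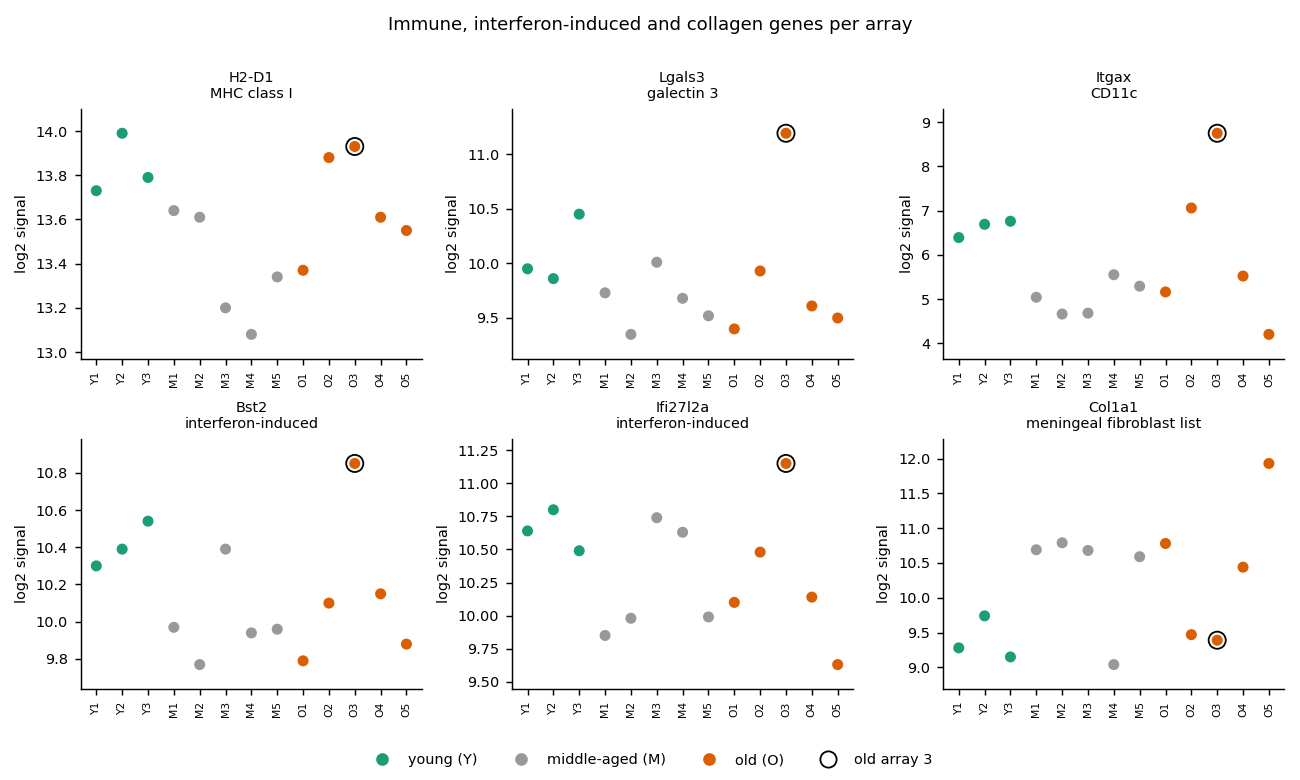
Log2 signal (vertical axes, a separate range in each panel) of 5 immune genes and a collagen gene on the 13 striatum-labelled arrays (horizontal axes; Y young, M middle-aged, O old; 1 point per array). For Bst2 the old arrays other than old array 3, ringed, lie at 9.79 to 10.15, below the young arrays at 10.30 to 10.54, while for Itgax old array 2 at 7.06 lies above the young arrays.

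The age difference was then compared with that of C57BL/6 cerebellum, the labelled tissue whose marker genes 7 of the 8 arrays share. Strain, slide set and labelled tissue cannot be told apart in this comparison. By the B threshold limma called 0 of 23917 genes (0%), with 641 genes (2.68%) at an unadjusted p under 0.05. By an adjusted p under 0.05 it called 3 genes (0.0125%), Ifi27l2a, Ifi27 and Pglyrp2. The probe of Ifi27l2a that was called had an age difference of -0.36 here and of 1.98 in C57BL/6 cerebellum, which differed by -2.34 (SE 0.30, adjusted p = 0.00366). Ifi27, a gene of the same family, had -0.28 here and 2.02 there on the called probe, which differed by -2.30 (SE 0.34, adjusted p = 0.0169). Its brightest probe was not called, with -0.11 here and 0.90 there, which differed by -1.01 (SE 0.30, adjusted p = 1), so the size of the difference depended on the probe. Cross-hybridisation between these relatives was not tested, so they may be 1 observation. Both genes are induced by interferon. On that Ifi27 probe the old C57BL/6 arrays lay between 12.14 and 12.52 and the young ones between 9.94 and 10.92, with no overlap, while all 8 striatum-labelled arrays lay between 9.11 and 10.45. The Pglyrp2 probe, for a peptidoglycan recognition protein, was well above background on 2 of the 8 arrays, and its difference of -4.07 (SE 0.67, adjusted p = 0.0461) is one of dim signals.

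Without old array 3 the 2 sets differed in more genes. The B threshold then called 55 of 23842 genes (0.231%), and 656 (2.75%) had an unadjusted p under 0.05. Of the 55, 54 had a lower age difference in the striatum-labelled arrays. In C57BL/6 cerebellum 54 of the 55 were higher in old, 49 of them past the threshold there. In the old striatum-labelled arrays 54 had lower mean signals. Of all 23842 genes, 11675 were higher in old C57BL/6 cerebellum and 12345 lower in the old striatum-labelled arrays. The 55 were selected on the difference between the 2 sets, which favours these opposite signs, so the signs are not a separate result. By an adjusted p under 0.05 there were 9 genes (0.0377%). Among the 55 were 15 of the 34 immune genes, 6 interferon-induced genes and 5 genes of MHC class I presentation. The study chose the immune list partly on the C57BL/6 cerebellum arrays used here, so the rise in that set is not independent evidence. In C57BL/6 cerebellum itself 81 genes (0.340%) by their brightest probe passed the threshold as higher in old when fitted without old array 3, and 6 (0.0251%) when fitted with it, since the spread is shared. The count was 0 with old array 3, and with it left out the count ran from 8 to 80 when each other striatum-labelled array was left out in turn, falling to 8 without young array 2 or young array 3, to 10 without old array 5 and to 21 without old array 1. Without young array 3, old array 1 and old array 3, the 3 arrays high for Slc6a3 and Tph2, it was 0. That fit also held fewer arrays than the others, and the part of region content in the fall was not tested.

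The C57BL/6 arrays were not uniform either. On the scale of the 68 arrays, young C57BL/6 cerebellum array 1 had a Purkinje cell score of 0.27 against 1.79 to 1.95 on the other 3 young arrays of that set and a granule cell score of 0.63 against 1.98 to 2.17. Its midbrain dopamine neuron score was 0.59 against -0.99 to -0.53. It thus stood apart from its group in region genes. With old array 3 in the fit the count of genes that differed between the sets was 0 without any 1 of the 4 young C57BL/6 arrays. With old array 3 left out it was 65 without young C57BL/6 array 1, 7 without array 2, 67 without array 3 and 7 without array 4. The 55 genes therefore also rested on young C57BL/6 arrays 2 and 4.

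The members past the threshold covered several roles. For Bst2 the age difference was -0.42 here and 1.12 in C57BL/6 cerebellum, a difference of -1.54 (SE 0.23, limma, adjusted p = 0.00932). For Lgals3 the values were -0.47 and 1.39, a difference of -1.85 (SE 0.28, limma, adjusted p = 0.00932). Clec4d, a C-type lectin receptor of myeloid cells, differed by -2.70 (adjusted p = 0.00932), and Ccl3, a chemokine that draws in leukocytes, by -3.20 (adjusted p = 0.0378), both from low signals. Irgm1, an interferon-induced GTPase, differed by -1.20 (limma, adjusted p = 0.0378). Treml4, a myeloid receptor, differed by -1.04 (limma, adjusted p = 0.0156). It too had low signals, at 4.17 to 4.30 on the old arrays other than old array 3. Clec7a differed by -3.34 and Itgax by -3.39, with B above 0 and adjusted p of 0.122 and 0.147. Over the 34 immune genes the median age difference was -0.31 here (-0.06 with old array 3) and 0.76 there. Over the interferon-induced genes it was -0.41 here (-0.20 with old array 3) and 0.89 there, and over MHC class I genes -0.37 (-0.18 with old array 3) and 0.40. Over all genes it was -0.01 in both sets. Mx1, an antiviral GTPase, was the interferon-induced gene higher in old in both sets, at 2.54 and 1.64, with signals of 1.84 to 5.41 and well above background on 1 of the 8 arrays.

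**Figure D5:**
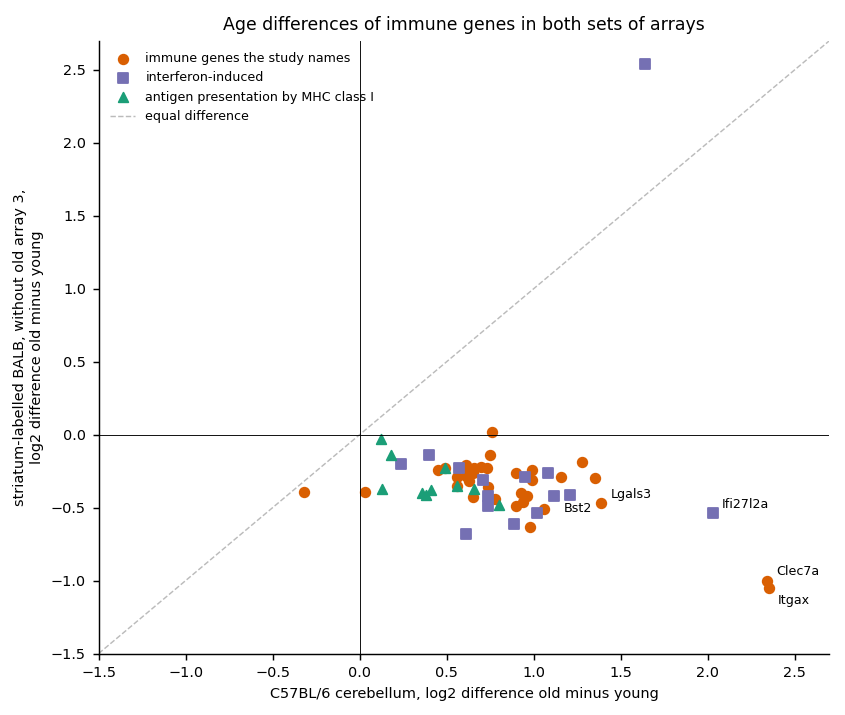
Log2 difference, old minus young, in C57BL/6 cerebellum (horizontal) and in the striatum-labelled BALB arrays without old array 3 (vertical), 1 point per gene of 3 lists; the dashed line marks equal differences. Most points lie right of zero and below it, such as Ifi27l2a, Bst2 and Lgals3, and the interferon-induced point at 2.54 is Mx1.

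The promoters of the called interferon-induced and MHC class I genes are shown because 11 genes of these lists were among the 55 called without old array 3. The interferon-stimulated response element is the site where interferon regulatory factors and the STAT complex bind, and its core was searched on both strands as GAAA, any 2 bases and GAAA again, and matches may overlap. Of these 11 genes, 8 matched a promoter by symbol in the RefSeq table (GRCm38.p6, 250 bases before to 50 after the gene start), and 4 of these 8 held the core, Ifit3, Bst2, H2-T23 and B2m. Of all 27025 genes in that table, 3.99% held it in a promoter. In the whole lists, 6 of 11 interferon-induced genes with a promoter there held it, and 2 of 9 MHC class I genes. In the sequences, 5′ to 3′ on the strand of the gene, capitals mark the matches to the core or to its reverse complement.
Bst2, chr8:71537423-71537722, minus strand: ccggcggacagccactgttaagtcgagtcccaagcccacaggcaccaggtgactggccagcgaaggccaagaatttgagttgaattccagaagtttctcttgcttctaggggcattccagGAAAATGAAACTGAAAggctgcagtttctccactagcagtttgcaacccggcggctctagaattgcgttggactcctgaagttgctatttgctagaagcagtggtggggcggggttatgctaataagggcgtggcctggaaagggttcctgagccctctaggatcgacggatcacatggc
B2m, chr2:122147437-122147736, plus strand: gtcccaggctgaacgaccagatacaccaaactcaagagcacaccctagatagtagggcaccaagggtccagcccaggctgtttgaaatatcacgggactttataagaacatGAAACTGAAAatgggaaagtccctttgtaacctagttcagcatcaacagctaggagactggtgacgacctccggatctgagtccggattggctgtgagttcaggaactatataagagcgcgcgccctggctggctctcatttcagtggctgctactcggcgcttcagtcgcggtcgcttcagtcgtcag
H2-T23, chr17:36032652-36032951, minus strand: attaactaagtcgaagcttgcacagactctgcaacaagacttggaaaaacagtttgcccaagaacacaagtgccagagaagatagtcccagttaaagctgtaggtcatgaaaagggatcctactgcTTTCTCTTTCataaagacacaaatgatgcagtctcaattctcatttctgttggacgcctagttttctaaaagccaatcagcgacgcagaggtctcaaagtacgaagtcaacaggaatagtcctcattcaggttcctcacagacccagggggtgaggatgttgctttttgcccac
Ifit3, chr19:34583279-34583578, plus strand: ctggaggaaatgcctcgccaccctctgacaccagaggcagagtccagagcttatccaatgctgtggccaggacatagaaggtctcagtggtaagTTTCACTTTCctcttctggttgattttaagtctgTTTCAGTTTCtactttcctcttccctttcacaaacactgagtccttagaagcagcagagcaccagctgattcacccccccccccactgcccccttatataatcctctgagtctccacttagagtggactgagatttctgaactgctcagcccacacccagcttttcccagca
In Bst2 a pair of overlapping matches began 130 bases before the gene start, in B2m 1 match began 139 bases before it, in H2-T23 1 began 124 bases before it, and in Ifit3 the first of 2 began 156 bases before it. A match is a description of letters and not of binding. In old minus young without old array 3, these 4 genes had differences of -0.43 for Bst2, -0.41 for B2m, -0.38 for H2-T23 and -0.50 for Ifit3 in the striatum-labelled arrays, none past the test. With old array 3 they were -0.26 for Bst2, -0.19 for B2m, -0.22 for H2-T23 and -0.33 for Ifit3.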

How the data were processed

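The authors scanned 1-colour arrays and deposited Agilent Feature Extraction files with background-corrected signal intensity per spot (version 9.1 in the submitters' notes, 10.5.1.1 in the file headers). A second deposited table holds log2 values, quantile normalized per the study's methods, and each of its columns matched the scanner file of its own array best. It served as an alternative here, and its 91 columns of other groups were not used in that fit. From the scanner files, control spots and outlier flags were left out, spots of a probe were averaged, log2 processed signals of the 13 striatum-labelled arrays were quantile normalized together, and limma 3.58.1 (R 4.3.3) was fitted over the 3 age groups with a prior proportion of 0.01. A probe was tested when well above background on at least 3 of the 8 arrays compared. A gene was called when any probe had B above 0, Benjamini-Hochberg p-values ran over all probes, and a gene's values are those of its brightest probe unless the called probe is named. The scripts were tested on simulated data.

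The comparison with C57BL/6 cerebellum used 25 arrays normalized together, probes well above background on at least 3 of the 18 young and old arrays, and a contrast of the 2 age differences. Alternatives were 75th percentile scaling, normexp with an offset of 50 (on median signals, since the files used hold no mean signal), other filters, slide or replicate number as a block, array weights, covariates and leaving out arrays. Of 326 genes in 32 lists, 319 were on the array under that name or a synonym. The members and lists were chosen with earlier results of these data known. By rule, each list's called and 3 brightest genes and region markers were named. Casp1, Treml4, Tph2, Ddx3y, Clec4d, Ccl3, Irgm1, Ifi27, Mx1, the collagen genes, Npas4 and Pglyrp2 were chosen after their values were seen. Arrays of other strains and of frontal cortex were not used here.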

Additional observations from a re-analysis of the deposited data

Results flagged for a closer look

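Among 32 list scores and 48 genes, 12 values on the 5 old arrays stood far from the rest by Dixon's gap test. Chance alone meets that test in about 1 of 20 groups. Of the 12, 11 were on old array 3. That array had been set apart by the Purkinje, granule and medium spiny neuron lists, and most of its flags are the first 2 of these lists or their members. The items are not independent, so the number of flags on old array 3 cannot be set against chance. On that array the Purkinje cell score was -3.55 against 0.15 to 0.62 on the other old arrays, and the granule cell score was -3.92 against 0.12 to 0.63. Its log2 signals were low for Pcp2 (10.3), Calb1 (14.06), Car8 (9.37), Gabra6 (5.14), Cbln1 (12.96), Cbln3 (1.79) and the hindbrain transcription factor En2 (10.97). They were high for Prkcd (14.98, against 12.70 to 13.28) and Treml4 (4.82, against 4.17 to 4.30, near background). Old array 2 was low for Adora2a, at 9.62 against 10.91 to 11.15.

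The age difference differed from that in C57BL/6 cerebellum, by the contrast of the 2 age differences in limma, for Ifi27l2a by -2.34, for Ifi27 by -2.30 and for Pglyrp2 by -4.07. The second Pglyrp2 probe ran from 3.93 to 4.73 on the 8 arrays, and both probes were near background.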

How the results depend on the processing

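In old versus young, 0 genes passed under every alternative run, 0 with the replicate block and 0 to 0 when each array was left out in turn. Replicate numbers did not pair the arrays: deviations of the same-numbered arrays correlated at -0.24, 0.17 and 0.59. The difference from C57BL/6 cerebellum had 0 genes by B above 0, also with 75th percentile scaling, with no filter, with slide as a random block and with young and old arrays alone, and 0 to 55 when each array was left out in turn. The 55 came without old array 3. With that array also left out, the count was 55 with slide as a random block, 41 with 75th percentile scaling, 64 with young and old arrays alone, and 8 to 80 when another array was left out (44 without young 1, 8 without young 2 or young 3, 21 without old 1, 80 without old 2, 37 without old 4, 10 without old 5); without young 3, old 1 and old 3 it was 0. With old array 3 and 1 young C57BL/6 cerebellum array left out, it was 65, 7, 67 and 7 for arrays 1 to 4, and with old array 3 kept it was 0 for each. By adjusted p it was 3, and 9 without old array 3. Alternatives other than the first, the filter and leaving out single arrays were chosen after seeing the data for that result. Slide as a fixed block, which rests on 1 shared slide, turned 20 of 32 list medians and 61 of 129 named genes, and leaving out old array 3 turned 10 of 32 and 35 of 127. Interferon-induced medians were -0.44 to -0.09 and MHC class I medians -0.39 to -0.06 over all settings, and immune medians -0.34 to 0.11.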

Other observations

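Collagen genes of the meninges had higher mean signals on the old arrays, without passing the test. Col1a1, a chain of type I collagen, had log2 signals of 9.28, 9.74 and 9.15 on the young arrays and of 10.78, 9.47, 9.39, 10.44 and 11.93 on the old arrays. Old arrays 1, 4 and 5 lay above all young arrays, and old arrays 2 and 3 lay within the young range. The difference was 1.01 (SE 0.55, limma, adjusted p = 1) and 1.26 (SE 0.53, limma, adjusted p = 1) without old array 3. Col3a1 differed by 0.60 and 0.84, and the 7 meningeal fibroblast genes had medians of 0.36 and 0.30. Within the slide that held both ages the median was -0.33, with 6 of 7 lower in old. The part of adhering meninges was not tested.

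Immediate early genes, which are switched on by neuronal activity, were higher in mean on the old arrays for 11 of 12 members. Without old array 3 this held for 12 of 12, and the medians were 0.24 with and 0.23 without that array. The list score, centred over the 13 striatum-labelled arrays, was 0.13, 0.09 and -0.77 on the young arrays and -0.09, 0.13, 0.08, 0.63 and -0.10 on the old arrays, so young array 3 lay lowest and the groups overlapped. The median was -0.03 without young array 3 and 0.08 without young array 3, old array 1 and old array 3. Npas4, which is induced by calcium entry, had 7.09, 6.67 and 4.80 on the young arrays and 6.92, 7.40, 7.83, 7.91 and 6.64 on the old arrays. Young array 3 was the lowest of the 8, and the groups overlapped. The difference was 1.16 (SE 0.49, limma, adjusted p = 1) over 8 arrays and 1.03 (SE 0.52, limma, adjusted p = 1) without old array 3.

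Casp1, the inflammasome protease, had 9.80, 9.89 and 9.82 on the young arrays and 8.89, 9.76, 8.80, 9.38 and 9.03 on the old arrays. The groups did not overlap, as for 401 genes (1.89%) over the 8 arrays. The difference was -0.66 (SE 0.26, limma, adjusted p = 1), and -0.57 (SE 0.26, limma, adjusted p = 1) without old array 3. Casp1 was lowest of the 8 on old array 3, whereas that array was the highest for 28 of the 34 immune genes.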
